A study of Rattus norvegicus with 16 samples.

Results

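The neuropeptide and granin genes described here are Cck, Sst, Npy, Penk, Pdyn, Tac1, Vip, Chga, Chgb and Scg2. They were chosen by name, and a probe set belonged to a gene where the array platform's annotation gave that symbol alone. All 10 were on the array, out of 10411 named genes, and each had 1 probe set, so no choice between probe sets was needed. Levels are log2 values made by the authors with RMA, a procedure that corrects the background, equalises the arrays and gives 1 value per probe set.

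The study cultured slices of rat hippocampus and measured the CA1 and the CA3 field on 16 Affymetrix arrays, 1 array per RNA sample. Each field has groups for T0, for 30 min, for 3 h and for 12 h, with 2 arrays labelled as biological replicates in each of the 8 groups. The title names oxidative stress; the sources used here do not give strain, age, agent, dose or the relation of T0 to the agent, so all 8 groups are known only by field and time. Nothing in the labels says whether the replicates came from separate animals, so the p-values measure the spread between these arrays, which may be technical.

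Neuropeptides are made as precursor proteins, cut by convertases inside dense-core vesicles and released when neurons fire strongly. In the hippocampus they are known as markers of neuron classes: Sst, Npy and Vip label inhibitory interneurons, with Sst and Npy often in the same cells, Cck a set of interneurons and also pyramidal cells, and Pdyn and Penk are best known from dentate granule cells and some interneurons. Chga, Chgb and Scg2 encode granins, acidic proteins that fill and help to form dense-core vesicles. Transcription of several of these genes is known to follow neuronal activity through the cAMP response element.

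The upstream sequences of 7 of these genes were read from the RefSeq promoter table (GRCr8): those of Sst, Npy, Pdyn, Tac1, Vip, Chgb and Scg2. Cck, Penk and Chga had no entry there. The 250 bases before each annotated start were searched on both strands for the cAMP response element TGACGTCA, its 5-base core TGACG, the variant TGCGTCA and the AP-1 letters TGANTCA. The full element contains the core, and TGCGTCA contains the core on its other strand. The full element was found in Scg2 alone, 123 to 116 bases before the start, and in 1.59% of all 33469 promoters. The core was found in Scg2, Tac1 and Vip, against 18.2% of all promoters. TGCGTCA was found in Tac1, against 1.66% of all, and TGANTCA in 0 of the 7, against 6.34% of all. The 3 sequences with a match are printed 5′ to 3′ with the matched letters in capitals, beside that of Chgb, the gene with the widest range on the arrays. They lie at Scg2 at chr9:88256867-88257116 (minus strand), Vip at chr1:44470230-44470479 (plus strand), Tac1 at chr4:36645333-36645582 (plus strand) and Chgb at chr3:140496462-140496711 (plus strand). A match is a description of these letters, and the genes without one are described only for this window.
Scg2: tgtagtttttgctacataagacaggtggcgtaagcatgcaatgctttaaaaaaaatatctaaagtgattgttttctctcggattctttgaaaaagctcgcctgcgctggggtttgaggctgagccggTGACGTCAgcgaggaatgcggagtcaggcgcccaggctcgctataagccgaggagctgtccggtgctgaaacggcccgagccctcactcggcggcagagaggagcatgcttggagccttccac
Vip: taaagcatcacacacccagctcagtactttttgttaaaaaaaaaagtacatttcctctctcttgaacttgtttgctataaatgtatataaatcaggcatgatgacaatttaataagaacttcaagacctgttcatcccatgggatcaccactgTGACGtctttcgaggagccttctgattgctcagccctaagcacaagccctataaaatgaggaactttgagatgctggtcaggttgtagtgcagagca
Tac1: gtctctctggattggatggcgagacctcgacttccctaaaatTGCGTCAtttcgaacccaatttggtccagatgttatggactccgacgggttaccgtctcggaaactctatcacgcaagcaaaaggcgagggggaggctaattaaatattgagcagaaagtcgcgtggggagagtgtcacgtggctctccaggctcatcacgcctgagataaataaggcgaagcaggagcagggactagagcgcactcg
Chgb: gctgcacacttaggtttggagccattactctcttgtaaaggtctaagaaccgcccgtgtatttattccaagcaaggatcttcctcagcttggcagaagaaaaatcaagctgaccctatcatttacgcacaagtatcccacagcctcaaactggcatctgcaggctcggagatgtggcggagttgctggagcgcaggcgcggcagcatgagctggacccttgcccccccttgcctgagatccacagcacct

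The members differed widely in level. Npy and Penk were bright, with means over all arrays of 10.35 and 9.38. Scg2, Cck and Chgb followed with means of 7.95, 7.85 and 7.73. Sst had a mean of 6.65, and the median of all probe set means was 5.92. Chga (5.88), Vip (5.51), Tac1 (4.85) and Pdyn (3.77) lay below that median, and RMA values carry no detection call, so whether these 4 probe sets measured their transcript was not tested. Levels of different probe sets depend on the probes as well as on the RNA, and these means order signals, not transcript amounts.

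They also differed in how much they varied. Chgb ran from 4.81 to 10.23, a range of 5.42, and the SD of its values ranked above that of 99.96% of probe sets. Scg2 had a range of 4.66, Cck of 4.19 and Npy of 4.02. Sst (3.02), Penk (2.95), Chga (2.53) and Vip (2.25) varied less, and Tac1 (0.70) and Pdyn (0.64) stayed nearly flat.

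**Figure D1:**
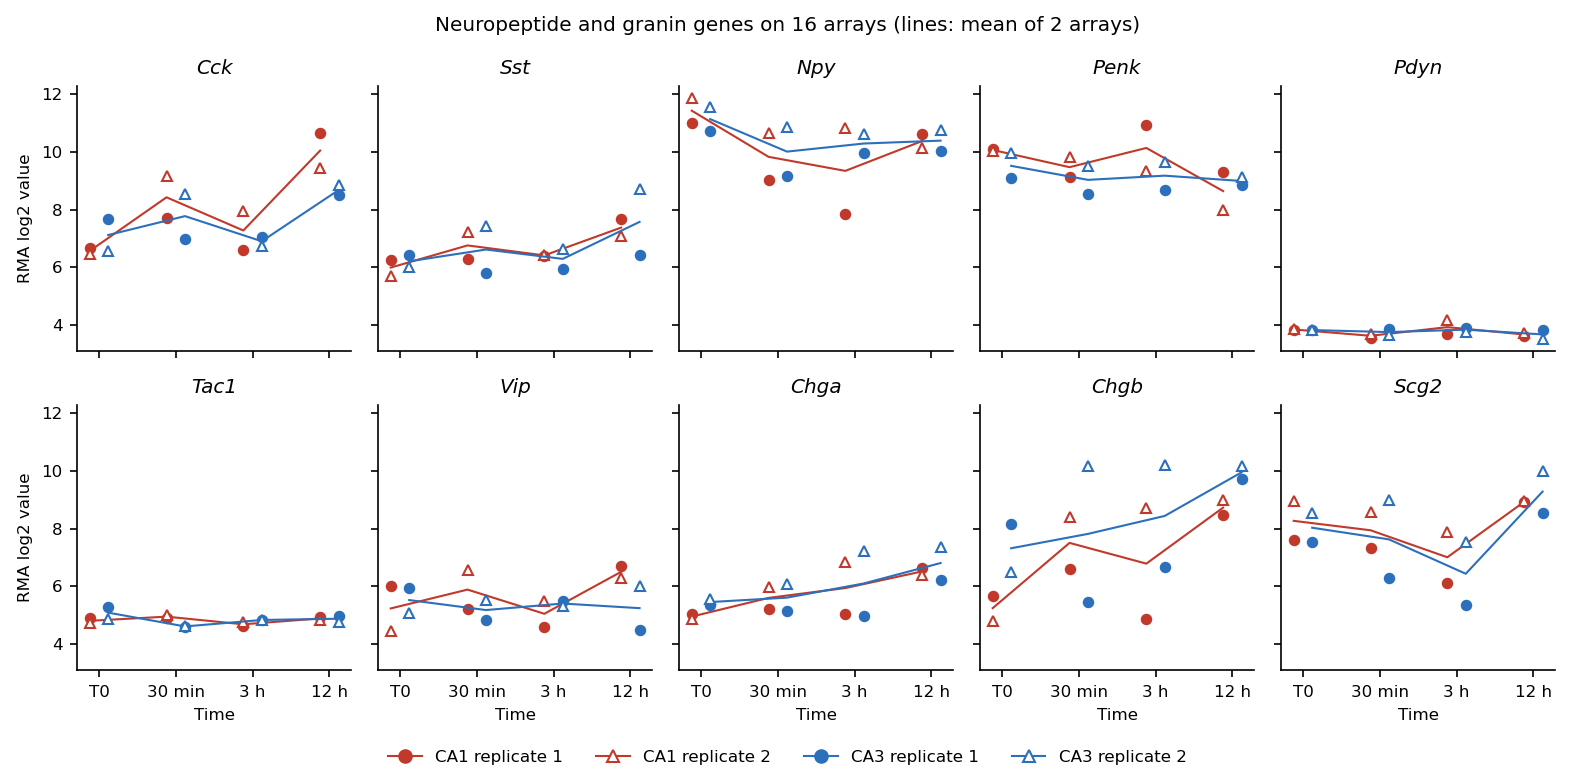
RMA log2 value of each gene on every array, with time as 4 categories from T0 to 12 h and CA1 (red) drawn left of CA3 (blue). Filled circles are replicate 1, open triangles replicate 2, and lines join the means of 2 arrays. Cck at 12 h lies above all T0 arrays, Npy is brightest at T0, and the replicates of Chgb lie far apart at 30 min and 3 h.

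The arrays themselves set limits on these comparisons. Probe sets for Bacillus transcripts, which the manufacturer's protocols add as spikes before labelling, had signals of 4.32 to 5.16 at 12 h, against 5.96 to 6.46 at T0, and of 4.15 and 4.37 on the replicate 2 arrays of 30 min. The GAPDH 3' minus 5' signal, a sign of RNA quality, ran from 1.29 to 3.93 and was highest on the replicate 2 arrays of 3 h, at 3.93 for both. In every group it was higher on the replicate 2 array than on the replicate 1 array. At 12 h it averaged 2.97 on replicate 2 and 1.32 on replicate 1. The CA1 and the CA3 array that share a time and a number in the labels, a pair in what follows, deviated together from their group means, with correlations over probe sets of 0.57 to 0.67. Comparisons of fields are therefore also given as differences within 8 pairs, and changes over time also from 8 pair means, in what is called the pair fit.

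The comparison of later times with T0 asks how expression moved over the 12 h. Cck, whose peptide cholecystokinin acts as a modulator of pyramidal cells and interneurons, was the only one of the 10 to pass the threshold, and it did so at 12 h. Its 12 h values were 10.65 and 9.44 in CA1 and 8.51 and 8.84 in CA3, against 6.67 and 6.47 in CA1 and 7.69 and 6.55 in CA3 at T0. The 4 arrays of 12 h all lay above the 4 of T0, and CA3 T0 replicate 1 stood apart as the highest of these T0 arrays. Averaged over both fields, Cck rose by 2.52 ± 0.48 on the log2 scale (limma, ± moderated standard error, 4 arrays against 4, adjusted p = 0.0315), a 5.73-fold difference. With pair means the same change did not pass (adjusted p = 0.261), nor did it with the spike signal as a covariate, where it was 1.92 (adjusted p = 0.396). Spike signals of 12 h and of T0 did not overlap, so that covariate cannot be separated from the time. Leaving out any 1 of 7 of the 8 arrays of T0 and 12 h, or either CA3 array of 3 h, also lost the call, with an adjusted p of at most 0.136; the exception among the 8 was CA3 T0 replicate 1.

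At 12 h 1 of the 10 members passed, against 2.07% of all 15866 probe sets, and 0 passed with pair means, against 0% of all. The unadjusted p was under 0.05 for 5 members, against 2891 of all 15866 probe sets. With pair means it was for 3 members, against 1664 of all. The median change of the 10 was 0.73, beside -0.02 for all probe sets, with 6 members above 0 and 4 below. Values from 12 h did not overlap those of T0 for 4 members, all of them higher, against 7.55% of probe sets that were higher without overlap and 8% that were lower without overlap. These 4 were Cck, Sst, Chga and Chgb. At 30 min and at 3 h 0 members lay wholly above or below T0, against 1.89% and 3.66% of probe sets at 30 min and 3.01% and 3.69% at 3 h.

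Sst encodes somatostatin, the peptide of dendrite-targeting interneurons. It had 7.69 and 7.07 in CA1 and 6.42 and 8.73 in CA3 at 12 h, against 6.27 and 5.71 in CA1 and 6.42 and 5.996 in CA3 at T0. The lowest 12 h array, CA3 replicate 1, was only 0.006 above the highest T0 array. The mean difference was 1.38 ± 0.50 (limma, adjusted p = 0.175). It was 0.45 with the spike signal, which cannot be separated from the time, as a covariate, and 0.80 without CA3 12 h replicate 2.

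The granins Chga and Chgb also lay higher at 12 h than at T0 on all arrays. Chga encodes chromogranin A and had 6.65 and 6.39 in CA1 and 6.24 and 7.38 in CA3 at 12 h, against 5.06 and 4.86 in CA1 and 5.37 and 5.55 in CA3 at T0. The groups were 0.69 apart at their nearest arrays. Its mean difference was 1.46 ± 0.52 (limma, adjusted p = 0.17). Chgb encodes chromogranin B and had 8.47 and 9.004 in CA1 and 9.74 and 10.17 in CA3 at 12 h, against 5.69 and 4.81 in CA1 and 8.16 and 6.49 in CA3 at T0. Within each field the 12 h arrays were the higher ones, and across fields CA3 T0 replicate 1 came close to the lower CA1 array of 12 h. Its mean difference was the largest of the 10, at 3.06 ± 1.17, with the largest standard error (limma, adjusted p = 0.195).

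Scg2, the gene of secretogranin II, was low at 3 h and high at 12 h. Its values were 7.60 and 8.95 in CA1 and 7.53 and 8.55 in CA3 at T0, and 6.13 and 7.90 in CA1 and 5.36 and 7.53 in CA3 at 3 h. At 12 h they were 8.92 and 8.95 in CA1 and 8.56 and 10.02 in CA3. The 12 h values were close together in CA1, and the lowest 12 h array lay below the highest T0 array. Neither the difference of -1.43 ± 0.72 at 3 h (adjusted p = 0.587) nor that of 0.96 ± 0.72 at 12 h (adjusted p = 0.58) passed in limma.

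Npy and Penk were the brightest members and lay in the other direction. Npy encodes neuropeptide Y, which damps glutamate release. Its values were 10.99 and 11.87 in CA1 and 10.71 and 11.57 in CA3 at T0, and 9.02 and 10.64 in CA1 and 9.17 and 10.85 in CA3 at 30 min. They were 7.85 and 10.84 in CA1 and 9.96 and 10.63 in CA3 at 3 h, and 10.63 and 10.12 in CA1 and 10.03 and 10.75 in CA3 at 12 h. Every later array was lower than the T0 array of the same field and replicate number, 12 of 12. These comparisons reuse the same T0 arrays, and the share of all probe sets with such a count was not computed. The highest later arrays reached above the lowest T0 array, so the groups overlapped. The difference from T0 was -1.36 ± 0.64 for 30 min, -1.47 ± 0.64 for 3 h and -0.90 ± 0.64 for 12 h (limma, adjusted p = 0.689, 0.528 and 0.545).

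Penk encodes the precursor of the enkephalins, opioid peptides. It had 9.30 and 7.99 in CA1 and 8.85 and 9.13 in CA3 at 12 h, against 10.09 and 10.05 in CA1 and 9.09 and 9.95 in CA3 at T0. CA3 T0 replicate 1 stood apart as the lowest T0 array and overlapped the 12 h values. The difference was -0.98 ± 0.43 (limma, adjusted p = 0.26). At 3 h its CA1 replicate 1 array, at 10.94, was the highest of the 16.

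Vip, the gene of vasoactive intestinal peptide, which marks interneurons that inhibit other interneurons, ran from 4.49 to 6.71 at 12 h, against 4.46 to 6.01 at T0. The groups overlapped along most of their range. The difference was 0.50 ± 0.47 (limma, adjusted p = 0.691). Tac1, the precursor gene of substance P, and Pdyn, that of the dynorphin opioid peptides, differed by -0.06 ± 0.12 and -0.16 ± 0.14 at 12 h (limma, adjusted p = 0.894 and 0.632). Their probe sets were among the dimmest of the 10, so these small differences cannot be read as steady transcript levels.

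**Figure D2:**
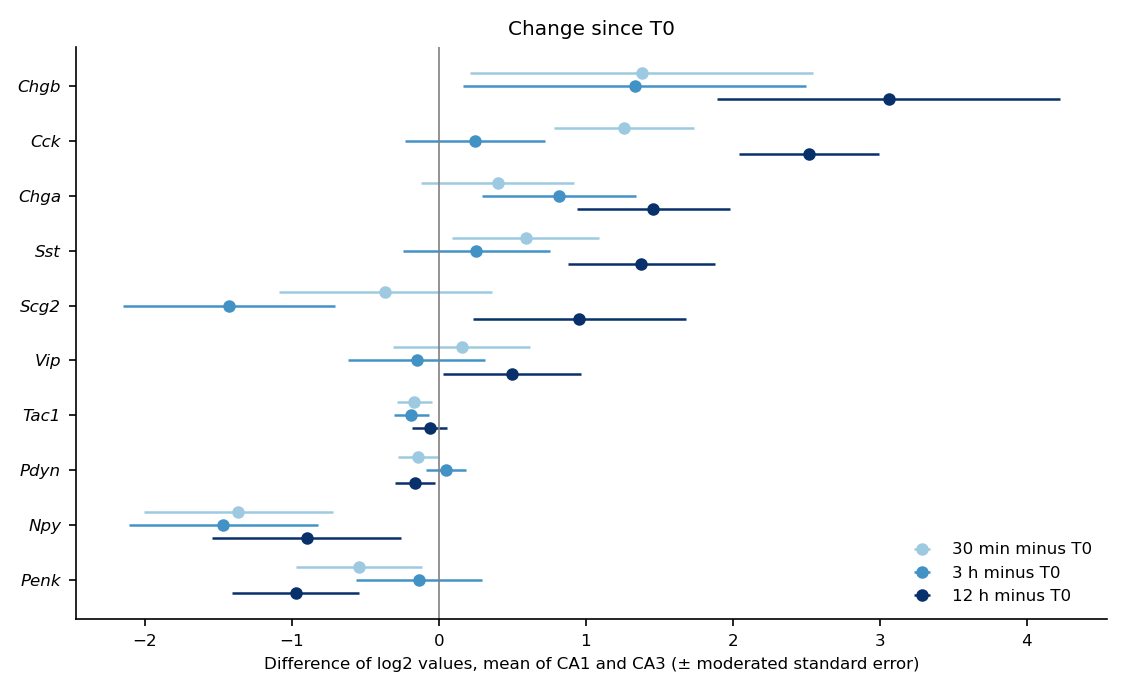
Difference of log2 values from T0 for each gene at 30 min, 3 h and 12 h, averaged over CA1 and CA3, with bars of 1 moderated standard error and genes ordered by the 12 h value. Chgb and Cck have the largest 12 h values (3.06 and 2.52), and Npy, Penk and Tac1 lie below 0 at all 3 times.

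At 30 min and at 3 h, 0 of the 10 members passed in limma, against 0.107% and 0.183% of all probe sets, and 0 passed with pair means at both times, against 0% of all. At an unadjusted p under 0.05 there was 1 member at 30 min (Cck) and 1 at 3 h (Npy) with all arrays, and 0 at both times with pair means. Over all 15866 probe sets the numbers were 1184 and 1443 with all arrays, and 629 and 792 with pair means. Median changes were 0.005 at 30 min and -0.04 at 3 h, beside -0.002 and 0.05 for all probe sets. Cck had 7.71 and 9.15 in CA1 and 6.997 and 8.55 in CA3 at 30 min, a difference from T0 of 1.26 ± 0.48 (limma, adjusted p = 0.532). It had 6.61 and 7.94 in CA1 and 7.05 and 6.75 in CA3 at 3 h, a difference of 0.25 ± 0.48 (adjusted p = 0.873). The mean of Cck was thus above T0 at 30 min, near it at 3 h and above it again at 12 h. The 2 replicate numbers differed at the earlier times. At 30 min the change of Cck averaged 0.17 within replicate 1 and 2.34 within replicate 2. At 3 h it averaged -0.35 within replicate 1 and 0.84 within replicate 2.

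The replicates of these genes often lay far apart. Replicate 2 was above replicate 1 for 10 of 10 members in CA1 and 9 of 10 in CA3 at 30 min, and for 9 of 10 in CA1 and 6 of 10 in CA3 at 3 h, against 45.1%, 43.8%, 55.8% and 40.2% of all probe sets. The count was 3 of 10 in CA1 and 8 of 10 in CA3 at 12 h, and 3 of 10 in CA1 and 4 of 10 in CA3 at T0, against 57.6%, 43.8%, 46.0% and 46.8% of all. The widest gap of a member was 4.74 in CA3 at 30 min, 3.84 in CA1 at 3 h and 3.56 in CA3 at 3 h, and it was at most 2.30 in the other groups. For Chgb the replicate 1 and 2 values were 6.62 and 8.40 in CA1 and 5.45 and 10.19 in CA3 at 30 min. At 3 h they were 4.87 and 8.71 in CA1 and 6.66 and 10.23 in CA3. Taken within replicate 1, the change of Chgb from T0 averaged -0.89 at 30 min and -1.16 at 3 h, and within replicate 2 it averaged 3.65 and 3.82. The 2 replicate numbers gave changes of the same sign for 4 of 10 members at 30 min, 3 of 10 at 3 h and 8 of 10 at 12 h, against 47.2%, 57.3% and 60.5% of all probe sets. At 12 h Tac1 and Vip were the exceptions, and Cck gave 2.41 within replicate 1 and 2.63 within replicate 2. The replicate 2 arrays of 30 min had the low spike signals, and those of 3 h the high GAPDH 3' minus 5' signals, and the part of either in these gaps was not tested.

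Within single fields, 0 of 10 members passed at any later time (limma, smallest adjusted p = 0.09). The shares of all probe sets were 0.0126%, 0.0063% and 0.208% for CA1 at 30 min, 3 h and 12 h, and 0%, 0% and 0.0063% for CA3. Members with an unadjusted p under 0.05 numbered 1, 1 and 2 in CA1 and 1, 0 and 1 in CA3. Over all 15866 probe sets the numbers were 787, 724 and 1787 in CA1 and 483, 623 and 1099 in CA3. Cck differed by 3.48 ± 0.67 in CA1 (adjusted p = 0.09) and by 1.56 ± 0.67 in CA3 (adjusted p = 0.699) at 12 h. The difference between these changes was 1.92 ± 0.95, and ± 0.61 in the pair fit, and passed in neither (limma, adjusted p = 1 in both). Vip differed by 1.27 ± 0.66 in CA1 and -0.28 ± 0.66 in CA3, a difference between fields of 1.55 ± 0.94 (adjusted p = 1). For the difference between fields 0 of 10 members passed at 30 min, 3 h or 12 h in either fit, against 0% of all probe sets. Unadjusted p-values under 0.05 were found for 1, 0 and 0 members with all arrays, and 2, 0 and 2 in the pair fit. Of all 15866 probe sets they were found for 133, 55 and 71 with all arrays, and 595, 281 and 371 in the pair fit.

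The comparison of fields asks which of these genes differ between CA1 and CA3. Averaged over the 4 times, 0 of 10 members passed with all arrays, against 0% of all probe sets, and 0 in the pair fit, against 0.208% of all. At an unadjusted p under 0.05 there were 0 members with all arrays and 1 in the pair fit, Chgb. Over all 15866 probe sets the numbers were 510 with all arrays and 1679 in the pair fit. The median difference, CA1 minus CA3, was -0.01 over the 10 members and -0.01 over all probe sets, with 4 members above 0 and 6 below.

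Chgb was lower in CA1 in 7 of 8 pairs, a count for which the share of all probe sets was not computed. Its CA1 minus CA3 differences, replicate 1 and then 2, were -2.48 and -1.68 for T0, 1.17 and -1.79 for 30 min, -1.79 and -1.52 for 3 h, and -1.28 and -1.17 for 12 h. All but the replicate 1 pair of 30 min thus lay between -2.48 and -1.17. The mean difference was -1.32, with a standard error of 0.82 with all arrays (limma, adjusted p = 1) and 0.27 in the pair fit (adjusted p = 0.097), past the threshold in neither. It was -0.72 without CA3 30 min replicate 2, -0.84 without CA1 3 h replicate 1 and -0.87 without CA3 3 h replicate 2. The general neuron markers of the list given further on had a median of -0.35 in the same comparison, with 1 of 13 above 0.

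None of the 10 members, Chgb included, had the same sign in all 8 pairs. Of all probe sets, 1.26% were higher in CA1 in all pairs and 1.02% were lower. Shares for the counts of 5 and 6 of 8 pairs that follow were not computed. Cck was higher in CA1 in 5 of 8 pairs, with differences from -1.02 to 2.14 and a mean of 0.46 ± 0.22 (pair fit, adjusted p = 0.512). Its CA1 minus CA3 value was 1.37 at 12 h, against -0.55 at T0. Penk, Vip and Scg2 were each higher in CA1 in 6 of 8 pairs, with means of 0.40, 0.33 and 0.19 and none past the threshold in the pair fit (adjusted p = 0.76, 0.732 and 0.9). Sst, Npy, Pdyn, Tac1 and Chga had means between -0.24 and -0.01 (pair fit, adjusted p from 0.714 up). At single times 0 of 10 members passed in either fit. The share of all probe sets was 0% in each, apart from 0.0063% at 12 h in the pair fit. At an unadjusted p under 0.05 there were 0 members at each time with all arrays. The pair fit had 3 for 12 h, 1 each for T0 and 3 h, and 0 for 30 min. Over all 15866 probe sets the pair fit had 710 for 12 h, 628 for T0, 885 for 3 h and 1028 for 30 min. With all arrays these numbers were 205, 115, 249 and 324.

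**Figure D3:**
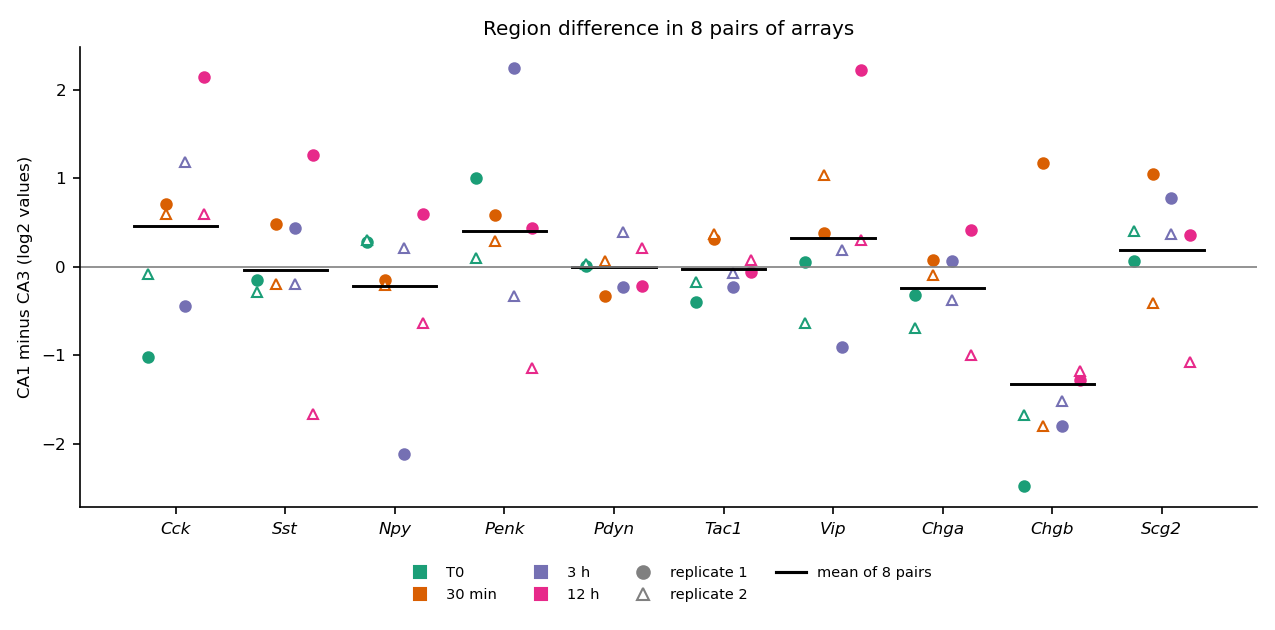
CA1 minus CA3 difference of log2 values in each of the 8 pairs of arrays for every gene, coloured by time, with circles for replicate 1, triangles for replicate 2 and a black bar for the mean of 8 pairs. Chgb lies below 0 in 7 of 8 pairs, and the other genes scatter on both sides of 0.

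The order of the 8 group means shows which neighbours cannot be separated. Cck was highest in CA1 at 12 h (10.05 ± 0.86, SD, n = 2) and CA3 at 12 h (8.68 ± 0.23), followed by CA1 and CA3 at 30 min (8.43 ± 1.02 and 7.78 ± 1.10), CA1 at 3 h (7.28 ± 0.94), CA3 at T0 (7.12 ± 0.81), CA3 at 3 h (6.90 ± 0.21) and CA1 at T0 (6.57 ± 0.14). Neighbours in this order differed by less than the larger SD of the 2, apart from the first step and the last. Chgb was highest in CA3 at 12 h (9.96 ± 0.30) and CA1 at 12 h (8.74 ± 0.38) and lowest in CA1 at T0 (5.25 ± 0.62). Its CA3 groups at 30 min and 3 h had SDs of 3.35 and 2.52, which span most of the order. Chga had the same 3 highest groups and the same lowest one, from 6.81 ± 0.81 in CA3 at 12 h down to 4.96 ± 0.14 in CA1 at T0.

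Over the 16 arrays, which share pairs and technical signals, the genes with the profile most like that of Cck were Crym, a thyroid hormone binding protein (Pearson r = 0.93), Ccsap (0.92), Fkbp1b (0.92), Mpped1 (0.91) and Slc24a3, a sodium, potassium and calcium exchanger (0.91). Those of Chgb were the synaptic vesicle gene Syn2 (0.98) and the endocytic GTPase gene Dnm1 (0.98). Sst was most like Ripor2 (0.91) and Kcnc2, a potassium channel of fast-firing neurons (0.91). Scg2 was most like Ociad2 (0.91) and Armc10 (0.90), Npy like the tubulin gene Tubb2b (0.85) and Cnot4 (0.84), and Penk like Rpn2 (0.86) and Eif3d (0.84). Among the members themselves, Chga and Chgb were the most alike (0.86), then Cck and Sst (0.75). These are descriptions chosen as the highest of many, and no test was run on them.

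Genes of the wider peptide pathway came from lists. For these and later lists, the numbers of all probe sets at an unadjusted p under 0.05 are those given above for the members. Of 27 other neuropeptide precursor genes measured, 0 rose and 1 fell at 12 h, with a median of -0.01. The one that fell was Calcb, a gene of the calcitonin gene-related peptide family, by 2.35 ± 0.49 (limma, adjusted p = 0.0416; 0.302 with pair means). Its mean was 5.10 at 12 h, against 7.44 at T0. The next in size was Grp, the gene of gastrin-releasing peptide, at 1.06 ± 0.62 (adjusted p = 0.43). At 30 min, at 3 h and between the fields 0 of 27 passed, with 4, 2 and 0 at an unadjusted p under 0.05 (4, 2 and 2 in the pair fit).

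Of 6 other granins and granule proteins 1 rose at 12 h, 0 fell and the median was 1.55. It was Pcsk1n, the gene of proSAAS, an inhibitor of the convertase PC1, by 2.39 ± 0.53 (limma, adjusted p = 0.0481; 0.363 with pair means). Its mean was 9.33 at 12 h, against 6.94 at T0. The neurotrophin gene Bdnf differed by 3.71 ± 0.93 (adjusted p = 0.0715) and Scg5, whose protein 7B2 assists the convertase PC2, by 2.48 ± 0.85 (adjusted p = 0.152). Vgf, another granin gene that follows activity, differed by 0.27 ± 0.91. Nucb2, the only gene of this list below 0, differed by -1.09 ± 0.41.

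Of 30 genes of peptide processing and vesicle release, 0 passed at 12 h (limma, 21 above 0, median 0.32). An unadjusted p under 0.05 was found for 11 (5 with pair means), against 2891 (1664) of all 15866 probe sets. The 2 largest differences were those of the membrane fusion genes Snap25 (2.56 ± 0.95, adjusted p = 0.184) and Vamp2 (2.17 ± 0.57, adjusted p = 0.0781), which also serve synaptic vesicles. The carboxypeptidase gene Cpe, the brightest of this list at 12.95, differed by 0.04 ± 0.23. Of 19 receptor genes for the members' peptides 0 passed (1 at an unadjusted p under 0.05, 0 with pair means). Their median was 0.04, their values ran from -0.07 to 0.42 with Tacr3 and Sstr4 highest, and 2 of the 19 had a mean above the median of all probe sets. Of 11 genes of peptide degradation 0 passed (2 at an unadjusted p under 0.05, 1 with pair means), with a median of -0.24. The largest differences were those of the insulin-degrading enzyme gene Ide (-0.53 ± 0.14) and of Ece1 (-0.47 ± 0.20). These 3 lists had 0 genes past the threshold at 30 min, at 3 h and between the fields as well, in both fits. In the pair fit of the fields, 1679 of all 15866 probe sets had an unadjusted p under 0.05. So did 10 of the 30 processing and release genes, 3 of the 19 receptor genes and 1 of the 11 degradation genes.

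**Figure D4:**
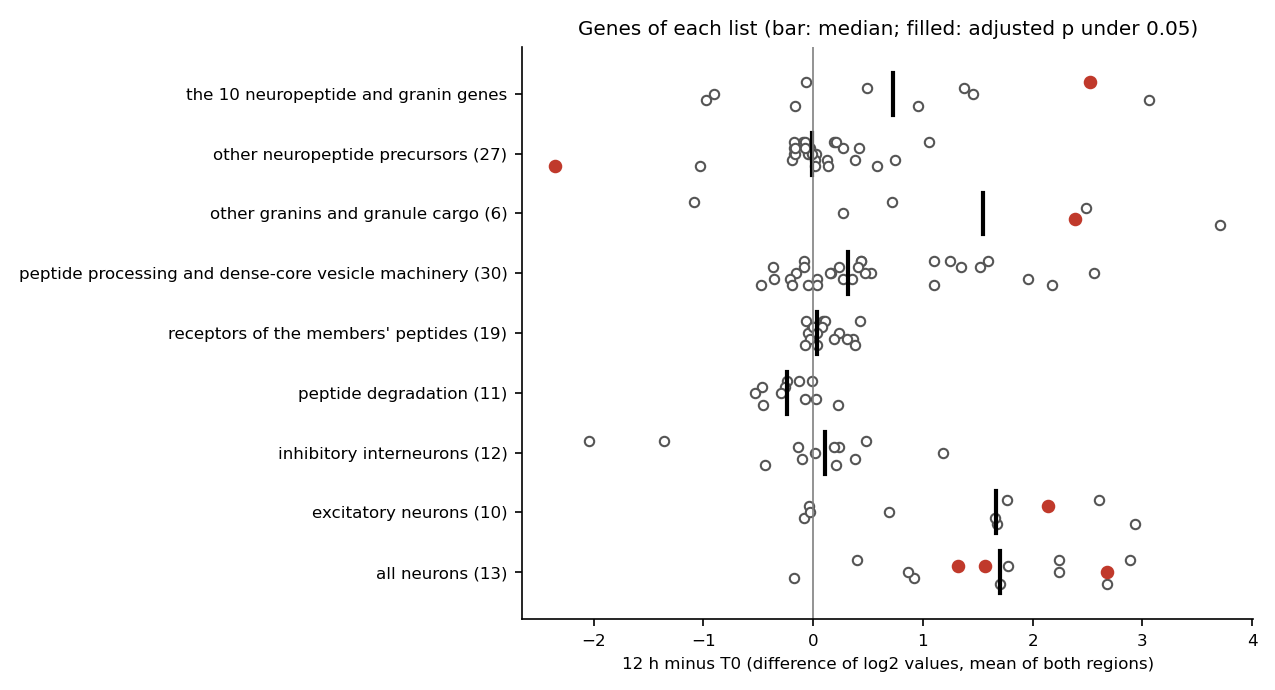
Difference of log2 values at 12 h from T0, averaged over both fields, for each gene of the 10 and of the lists, with the number of genes measured after the name of each list. Filled points have an adjusted p under 0.05 in limma, and black bars are medians, which run in the groups drawn from -0.24 for peptide degradation to 1.70 for all neurons.

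Markers of neuron classes were set beside these results. Fewer cells of a type and less RNA per cell cannot be told apart in such samples. Of 12 inhibitory interneuron markers 0 passed at 12 h (limma, median 0.11; 2 at an unadjusted p under 0.05 in each fit), and the mean level of the list was 5.38 to 6.08 at 12 h, against 5.62 to 5.93 at T0. Gad1, the gene of the GABA-making enzyme, differed by 0.48 ± 0.71, Slc32a1, that of the vesicular GABA transporter, by 1.18 ± 0.57, and Reln, that of reelin, by -2.05 ± 0.54 (adjusted p = 0.841, 0.304 and 0.0831). Reln and Maf, at -1.36, were the 2 largest differences of the list.

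Of 13 general neuron markers 3 rose at 12 h and 0 fell, with a median of 1.70, and the mean level of the list was 8.03 to 8.71 at 12 h, against 6.02 to 7.76 at T0. The 3 were Tubb3, Stmn2 and Ina, with changes of 1.56 ± 0.29, 2.68 ± 0.58 and 1.32 ± 0.29 (limma, adjusted p = 0.0292, 0.0462 and 0.0469), and none passed with pair means. Rbfox3, at 2.88 ± 1.11, and Thy1, at 2.68 ± 0.88, did not pass (adjusted p = 0.198 and 0.138). In the field comparison 1 of the 13, the neurofilament gene Nefl, was lower in CA1 in the pair fit, at -1.42 (adjusted p = 0.0478). Of 10 markers of excitatory neurons 1 rose, Slc17a6, the gene of a transporter that loads glutamate into vesicles (2.14 ± 0.41, adjusted p = 0.0317; 0.249 with pair means), with a median of 1.66. Nptx1 and Nrgn differed by 2.93 and 2.61 without passing. At T0 the excitatory list had a mean level of 7.03 in CA3 replicate 1, against 5.48 to 5.77 on the other T0 arrays, and this was the array on which Cck was highest and Penk lowest. At 12 h 12 of the 13 general and 7 of the 10 excitatory markers lay above 0, as Cck, Chga, Chgb and Sst did, and the part of these cell types in those values was not tested.

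Other cell types gave these values at 12 h. Of 11 microglia markers 4 fell (Lyz2, C1qc, Ptprc and C1qa), with a median of -1.89, and Aif1 differed by -2.23 (limma, adjusted p = 0.0685). Of 8 markers of dividing cells 6 fell (Mki67, Top2a, Mcm3, Ccnb1, Ccnb2 and Cdk1), with a median of -1.70. With pair means 0 genes of both lists passed, while 7 of the 11 and 7 of the 8 had an unadjusted p under 0.05. The number over all 15866 probe sets was 1664. Mki67 and Mcm3 of these also fell at 30 min, and Mki67, Top2a and Mcm3 at 3 h, with 0 passing in the pair fit.

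Of 9 astrocyte, 8 oligodendrocyte and 5 dentate granule cell markers 0 passed at 12 h, with medians of -0.16, 0.09 and -0.20; at an unadjusted p under 0.05 there were 1, 1 and 0. Their largest differences were those of Aqp4 (-0.87) and Slc1a3 (-0.85) in astrocytes, Mbp (0.98) and Cldn11 (-0.68) in oligodendrocytes, and Calb1 (-2.003 ± 1.196) and Trpc6 (-0.24) in granule cells. Of 8 chromaffin and endocrine cell genes, named because chromogranins are abundant there, 0 passed, 0 had an unadjusted p under 0.05 and the median was -0.03, with Pomc (-0.18) and Th (0.16) differing most. In the pair fit of the fields 3 of the 8 oligodendrocyte markers, Mag, Mbp and Cldn11, were lower in CA1 (median of the 8, -0.63).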

How the data were processed

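RNA of the CA1 and the CA3 field was measured on 16 Affymetrix arrays, in 8 groups of 2. The deposited values are on a log2 scale, and the submitters' processing notes name RMA as the authors' method, with no version or settings. RMA equalises the arrays, so a shift shared by most transcripts is not seen, and array medians lay between 5.81 and 5.94. Arrays have no read depth, and their number limits the precision.

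Of 15923 probe sets, 57 controls were left out and 15866 were tested. By the platform's annotation 12783 of these had 1 gene, 312 had several and 2771 had none. A model of 8 group means was fitted with limma 3.58.1 (R 4.3.3), with Benjamini-Hochberg adjustment over all 15866 and a threshold of 0.05; all p-values given are from limma. The pair fit used the 8 CA1 minus CA3 differences, or the 8 pair means for time, with 4 residual degrees of freedom. Same-numbered CA1 and CA3 arrays of a time deviated together at every time, the lowest correlation being 0.57, and the pairing comes from the labels' numbers. The procedure was tested on simulated data in which every array varied independently. That test therefore does not cover the shared deviation of the pairs.

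All 10 genes were named. From every other list the text names genes past the threshold and the 2 with the largest absolute change at 12 h. Vgf, Nucb2, Cpe, Gad1 and Slc32a1 are named besides, outside this rule. Genes of like profile were the 5 (Cck) or 2 (other members above the median brightness) with the highest Pearson r. Members and lists were chosen with earlier results of these data known.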

Additional observations from a re-analysis of the deposited data

Results flagged for a closer look

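Chance marks about 1 in 20 sets of values by the gap criterion used here, and 4 of the 50 sets examined were marked. Over the 4 arrays of T0, Cck was highest in CA3 replicate 1 at 7.69, with the next at 6.67, and Penk was lowest in the same array at 9.09, with the next at 9.95. Over the 8 CA1 minus CA3 differences, that of Npy was lowest in the replicate 1 pair of 3 h at -2.11, with the next at -0.63. That of Chgb was highest in the replicate 1 pair of 30 min at 1.17, with the next at -1.17.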

How the results depend on the processing

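The number of the 10 genes past the threshold at 12 h, averaged over both fields, was 1. It was 0 with the replicate block as pairs, 0 with the pair as a random block, 0 with the spike signal as a covariate and 0 when replicate 2 was left out at 30 min and at 12 h. It was 2 with the replicate number as a block (Cck and Chga) and 3 with the GAPDH signal as a covariate (Cck, Chga and Chgb). As said above, the spike signal cannot be separated from the time in this comparison. Leaving out single arrays gave 0 to 1, and 0 for 9 of the 16. For 12 h in CA1 the count was 0, and 1 (Cck) with the number as a block and with the GAPDH covariate. Counts for the other comparisons of fields, times and their interaction stayed at 0 under each alternative that could be fitted. The 12 h change of Cck ran from 1.92 to 2.74 over the alternatives (limma, adjusted p from 0.0117 to 0.396), that of Chgb from 1.53 to 3.38, that of Sst from 0.45 to 1.46, that of Chga from 1.13 to 1.64 and that of Scg2 from -0.30 to 1.21. With single arrays left out these ran from 2.22 to 2.82, 2.64 to 3.48, 0.80 to 1.95, 1.17 to 1.75 and 0.59 to 1.32, in the same order. The CA1 minus CA3 value of Chgb ran from -1.68 to -0.96, and from -1.91 to -0.72 with single arrays left out. Averaging several probe sets changes nothing, since each gene has 1, and the restriction to brighter probe sets keeps 6 of the 10 genes. Dim signals of Pdyn and Tac1 limit what their small differences can show.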
